A study of Rattus norvegicus with 12 samples.

Results

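Soy protein isolate (SPI) took the place of casein in the diet of rats that also received estradiol. The effect of that change on the tibia was read from 6 of the 12 arrays of the series, 3 labelled SPI+E2 and 3 labelled E2. The members were every array of these groups as GEO's labels give them and every probe set that was not a control, which left 31042 of 31099 probe sets. All groups were labelled as female rats at postnatal day 34, and the methods name the strain as Sprague-Dawley. The CAS group ate casein alone, the SPI group ate SPI in place of casein, the E2 group ate casein and received estradiol (E2), and the SPI+E2 group ate SPI and received estradiol. Estradiol came from subcutaneous osmotic minipumps at 10 µg/kg/d, and the diets began at weaning on postnatal day 20 and lasted 14 days per the methods. The labels instead give the start as postnatal day 21. Each array held pooled RNA of 2 to 3 rats from bone frozen after the marrow had been aspirated, so a difference is read against the spread between pools. The tissue may still have held nerve, vessel, muscle, periosteum and residual marrow, but its make-up was not tested. In such bulk RNA fewer cells of a type and less RNA per cell cannot be told apart. All values are log2 values that the authors centred on each probe set's median over the 12 arrays. They show how a gene differed between arrays and hold no level that could be compared between genes.

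Bone is innervated by sensory fibers, which carry peptides such as calcitonin gene-related peptide, and by postganglionic sympathetic fibers, which use noradrenaline, neuropeptide Y or vasoactive intestinal peptide. Schwann cells wrap these axons and make the peripheral myelin. Osteoclasts, which arise from the macrophage lineage, remove bone with acid and the protease cathepsin K, osteoblasts lay down collagen and mineral, and osteocytes are osteoblasts that became buried in the matrix. Estradiol slows bone turnover, and the isoflavones of soy bind estrogen receptors.

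Markers of bone and of sex were read first as differences between groups. Centred values hold no level, so they cannot show whether the tissue was bone. Of 9 osteoblast genes measured, 2 fell in SPI+E2 relative to E2, Ibsp by 0.17 and Sparc by 0.13. Both calls were lost without E2 pool 1, among other arrays. Bglap, Col1a1, Col1a2, Alpl and Spp1 did not pass the test, with changes between -0.08 and 0.07. The Y-linked gene Eif2s3y gave a mean of -1.97 on the CAS arrays, 0.48 on the SPI arrays, 0.07 on the E2 arrays and -0.22 on the SPI+E2 arrays. Its change between SPI+E2 and E2 was -0.29 and did not pass the test (adjusted p = 0.229), while the CAS arrays lay below the other 9 for this gene. All 3 sex chromosome genes measured passed the test between SPI and CAS, Eif2s3y higher by 2.45 in SPI and Xist and the Y-linked gene Uty lower by 0.29 and 0.18. Whether the pools differed in sex, or the Eif2s3y probe set also read the X-linked copy of this gene, was not tested. The values below that use the CAS arrays rest on these arrays, and the part of this difference in them was not tested. None of the 3 genes passed the test between SPI+E2 and E2, and Xist gave a change of 0.04 between SPI+E2 and E2 (adjusted p = 0.511).

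The question of the comparison is what SPI did in the presence of estradiol. Of 14217 genes, 1040 rose in SPI+E2 relative to E2 (7.32% of all genes tested) and 1170 fell (8.23%), by limma at an adjusted p under 0.05. The change of 2076 of these 2210 genes stayed under 1.5-fold, and the median change of all genes was 0.02. By probe set, 1528 rose (4.92%) and 1717 fell (5.53%), and 71 were at least 1.5-fold higher and 195 at least 1.5-fold lower. The SPI+E2 arrays lay wholly above the E2 arrays for 18.9% of all genes and wholly below them for 17.5%. The number of genes called fell to 1462 without the array of E2 pool 1, to 1450 without E2 pool 3, and the number of probe sets to 1940, 1852 and 2098 without E2 pool 1, E2 pool 3 and SPI+E2 pool 2.

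Among the rises, genes of sympathetic neurons and of catecholamine handling came first. Vip, vasoactive intestinal peptide, measured -0.39, -0.32 and -0.38 on the E2 arrays and 3.37, 2.97 and 3.47 on the SPI+E2 arrays. This was a 12.4-fold difference (log2 3.63, SE 0.12, limma adjusted p = 1.27e-08), the largest of any gene. The CAS mean of -0.17 and the SPI mean of 0.19 lay beside the E2 arrays, so SPI+E2 stood alone among the 4 groups. Th, tyrosine hydroxylase, which makes DOPA as the rate-limiting step of catecholamine synthesis, measured -0.06, 0.00 and -0.47 under E2 and 2.37, 1.76 and 2.56 under SPI+E2. The difference was 5.32-fold (log2 2.41, SE 0.20, adjusted p = 1.48e-05). Npy, neuropeptide Y, which sympathetic endings release together with noradrenaline, went from -0.41, -0.43 and -0.64 to 1.54, 1.63 and 1.54, a 4.18-fold rise (log2 2.06, SE 0.07). Dbh, dopamine beta-hydroxylase, which turns dopamine into noradrenaline, went from -0.26, 0.00 and -0.23 to 1.43, 1.63 and 1.30, a 3.06-fold rise (log2 1.61, SE 0.10). The SPI+E2 arrays lay above the E2 arrays in each of these genes, which the rule for naming the largest rises required.

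The rest of the sympathetic list was read the same way. Of its 17 measured genes, 12 rose, 1 fell and 4 did not pass the test, and the median change was 0.51 beside 0.02 over all genes. Slc18a2, the vesicular monoamine transporter, rose by 1.06 on the log2 scale, Cyb561, an electron carrier of catecholamine vesicles, by 0.86, and Ddc, which makes dopamine from DOPA, by 0.70. The 3 probe sets of Slc18a2 gave changes from 0.60 to 1.61. Gch1, needed for the cofactor of tyrosine hydroxylase, rose by 0.51. The transcription factors of the sympathetic lineage Phox2a, Hand2 and Gata3 rose by 0.52, 0.32 and 0.34, and the ganglionic acetylcholine receptor subunit Chrna3 by 0.33. The noradrenaline transporter Slc6a2 changed by 0.12 (adjusted p = 0.471) and did not pass the test. Ret, a receptor tyrosine kinase that sensory neurons also carry, was the member that fell, by 0.45. Averaged over the 17 genes, the arrays read -0.16 to -0.09 for CAS, -0.02 to 0.10 for SPI, -0.18 to -0.04 for E2 and 0.66 to 0.75 for SPI+E2.

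**Figure D1:**
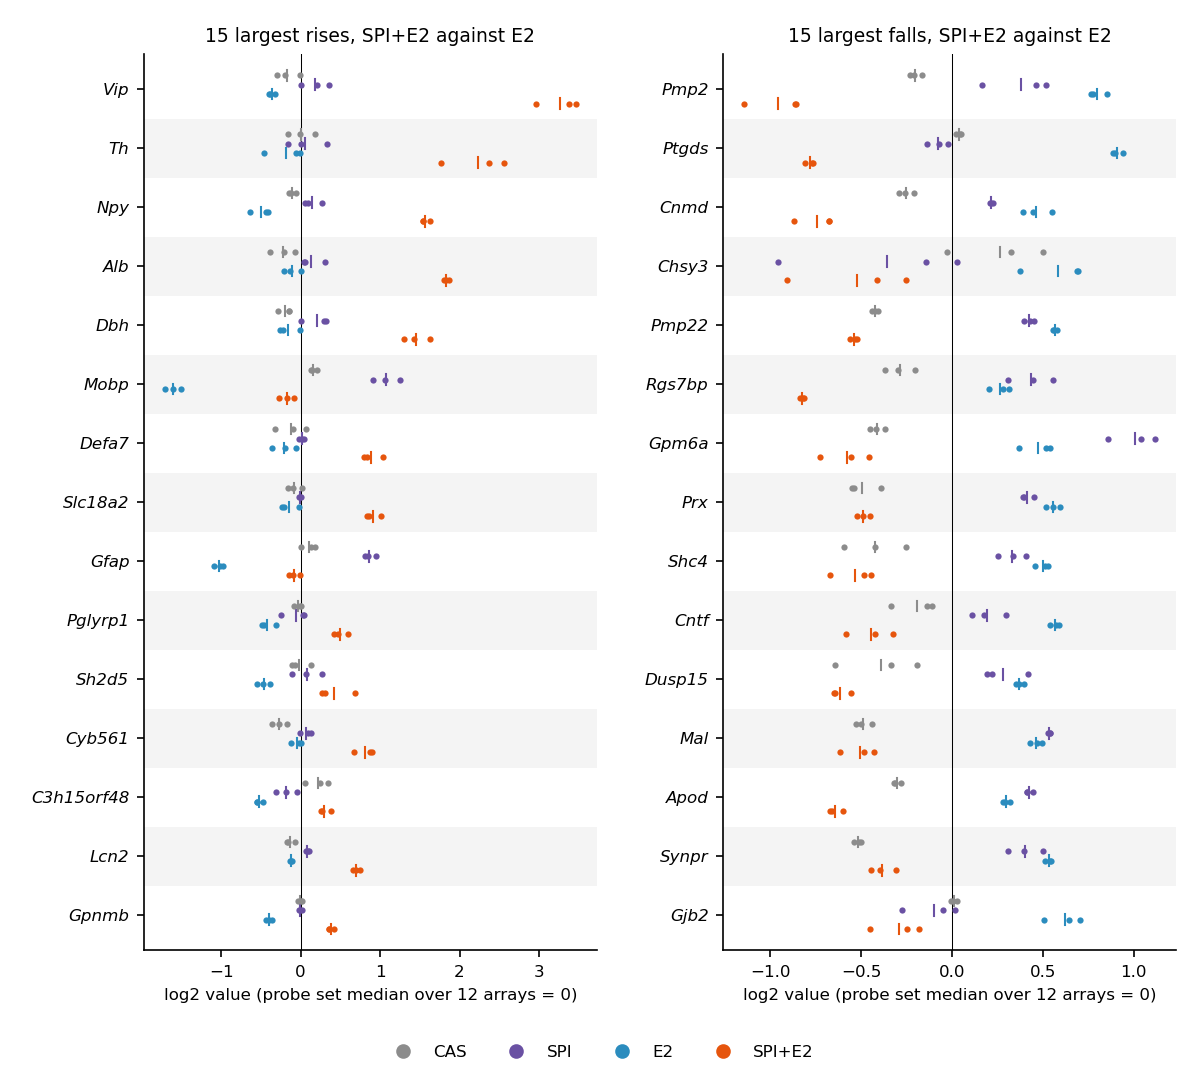
Log2 values on all 12 arrays (x axis, probe set median over the arrays at 0) for the 15 genes with the largest rise and the 15 with the largest fall in SPI+E2 relative to E2; each point is an array and each short bar a group mean. Vip, Th, Npy, Alb and Dbh are high on the SPI+E2 arrays alone, Mobp and Gfap are low on the E2 arrays, and most genes on the right are high on the SPI and E2 arrays and low on the CAS and SPI+E2 arrays.

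The promoters of 4 of these genes are shown because each carries the cyclic AMP response element (CRE), TGACGTCA, or its shorter form TGACG, through which cyclic AMP is known to act on catecholamine and peptide genes. Each run is 300 bases of RefSeq sequence of build GRCr8, most of it before the annotated start and the rest just after it, written 5′ to 3′ along the gene. Vip lies at chr1:44470230-44470529 on the plus strand, Th at chr1:207508169-207508468 on the minus strand, Slc18a2 at chr1:268399771-268400070 on the plus strand and Dbh at chr3:30886078-30886377 on the plus strand. Capitals mark the full CRE in Th and Slc18a2, and TGACG, or CGTCA where it runs on the other strand, in Vip and Dbh.
Vip: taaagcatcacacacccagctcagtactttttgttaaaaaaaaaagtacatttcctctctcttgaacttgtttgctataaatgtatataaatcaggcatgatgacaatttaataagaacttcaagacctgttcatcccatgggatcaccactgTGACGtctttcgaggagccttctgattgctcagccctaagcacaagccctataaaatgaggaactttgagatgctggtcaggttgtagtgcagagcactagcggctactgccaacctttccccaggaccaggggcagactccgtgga
Th: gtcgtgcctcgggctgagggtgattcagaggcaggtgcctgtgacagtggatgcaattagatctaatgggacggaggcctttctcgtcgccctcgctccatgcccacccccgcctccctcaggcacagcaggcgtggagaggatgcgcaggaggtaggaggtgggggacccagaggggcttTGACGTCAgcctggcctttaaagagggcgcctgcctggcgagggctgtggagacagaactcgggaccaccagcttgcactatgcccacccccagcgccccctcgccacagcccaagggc
Slc18a2: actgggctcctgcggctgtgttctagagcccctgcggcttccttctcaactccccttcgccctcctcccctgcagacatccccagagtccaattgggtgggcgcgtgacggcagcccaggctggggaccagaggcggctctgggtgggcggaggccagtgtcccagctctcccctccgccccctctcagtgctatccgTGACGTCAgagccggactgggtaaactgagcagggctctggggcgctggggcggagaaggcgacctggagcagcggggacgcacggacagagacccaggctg
Dbh: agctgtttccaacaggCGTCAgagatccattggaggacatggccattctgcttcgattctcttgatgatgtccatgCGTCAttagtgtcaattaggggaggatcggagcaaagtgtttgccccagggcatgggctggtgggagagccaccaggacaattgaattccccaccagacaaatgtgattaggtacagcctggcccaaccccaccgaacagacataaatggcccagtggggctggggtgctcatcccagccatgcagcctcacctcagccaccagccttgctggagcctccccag

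The full CRE began at -69 from the start in Th and at -52 in Slc18a2, and TGACG began at -97 in Vip. On either strand, TGACGTCA lay in 612 of 33469 promoters (1.83%) and in 2 of the 16 promoters found for the sympathetic list, while TGACG, which every full CRE contains, lay in 21.2% of all promoters and in 9 of these 16. The Npy window held no match to either. Among other lists TGACG lay in 8 of 10 promoters of immediate early genes and 8 of 12 of cholesterol synthesis genes, and in 3 of 12 of sensory neuron, 3 of 13 of pan-neuronal, 2 of 8 of Schwann cell and 0 of 12 of fibroblast and tendon genes. A full estrogen response element was found in 9 of all promoters (0.0269%) and in no promoter of any list. These matches describe letters in a window and were not tied to any factor.

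Sensory neuron genes went the other way. Of 15 measured, 12 fell and none rose, with a median change of -0.55. Calcb and Calca encode the peptides of the calcitonin gene-related peptide family. Calcb measured 0.39, 0.39 and 0.36 under E2 and -0.44, -0.61 and -0.39 under SPI+E2 (log2 difference -0.86, SE 0.06, limma adjusted p = 4.87e-06), and Calca fell by 0.55 (SE 0.05). Tac1, the precursor of substance P, measured 0.43, 0.35 and 0.38 under E2 and -0.43, -0.35 and -0.46 under SPI+E2. The sodium channels of nociceptors Scn9a and Scn11a fell by 0.86 and 0.63. The heat-gated channel Trpv1 fell by 0.44, the ATP receptor P2rx3 by 0.62 and the intermediate filament peripherin (Prph) by 0.50. The E2 and SPI+E2 arrays were apart in each of these genes, as in 2196 of the 2210 genes called. Isl1, Pou4f1 and Prdm12, transcription factors of sensory neurons, changed by -0.02, -0.23 and 0.21 and did not pass the test.

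Genes shared by most neurons followed the sensory ones. Of 20 measured, 14 fell and none rose, with a median of -0.41. Scg2, a granin of secretory vesicles, measured 0.46, 0.41 and 0.49 under E2 and -0.35, -0.52 and -0.29 under SPI+E2 (log2 difference -0.84, SE 0.06). The neurofilament genes Nefl, Nefm and Nefh fell by 0.61, 0.64 and 0.66, the RNA-binding protein gene Elavl4 by 0.64, and the synaptic fusion gene Snap25 by 0.49 (adjusted p = 4.76e-05). The granin genes Chga and Chgb, with changes of -0.35 and -0.22, did not pass the test. The rise of the noradrenergic genes stood beside this fall on the same arrays.

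Genes of the Schwann cell list held 4 of the 15 largest falls. Pmp2, a lipid-binding protein of peripheral myelin, measured 0.78, 0.76 and 0.85 under E2 and -0.87, -1.15 and -0.86 under SPI+E2, a 3.37-fold difference (log2 -1.75, SE 0.09, limma adjusted p = 6.15e-07). Pmp22, a myelin membrane protein, measured 0.56, 0.58 and 0.56 and then -0.52, -0.54 and -0.56 (log2 -1.11, SE 0.03). Prx, periaxin of the Schwann cell, fell by 1.05, the myelin proteolipid gene Mal by 0.97 and S100b by 0.73. Cntf, a neurotrophic factor that Schwann cells make, was in no list and fell by 1.01. Of the 12 Schwann cell genes measured, 10 fell and none rose, with a median of -0.50, and Egr2, a regulator of myelination, fell by 0.47. Gjb1 and Erbb3 changed by -0.04 and 0.09 and did not pass the test. The mean over the 12 genes was -0.26 to -0.23 on the CAS arrays, 0.39 to 0.40 on the SPI arrays, 0.28 to 0.30 on the E2 arrays and -0.36 to -0.31 on the SPI+E2 arrays.

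Genes of central glia differed from those of the Schwann cell. Mobp, of central myelin, measured -1.60, -1.51 and -1.71 under E2 and -0.08, -0.28 and -0.17 under SPI+E2 (log2 difference 1.43, SE 0.08), while the CAS mean was 0.16 and the SPI mean 1.07. Gfap, an intermediate filament of astrocytes that some Schwann cells also make, measured -0.97, -1.01 and -1.09 and then -0.01, -0.10 and -0.14 (log2 0.94, SE 0.06). Mog rose by 0.68 and Ermn by 0.51, both of them genes of central myelin. The other 12 of 16 central glia genes did not pass the test, among them the astrocyte genes Aqp4, Slc1a2, Slc1a3 and Aldh1l1 with changes between -0.04 and 0.14, and the median was 0.14. The E2 arrays held the lowest means of this list, -0.37 to -0.29, against -0.09 to -0.03 for SPI+E2, 0.01 to 0.09 for CAS and 0.48 to 0.56 for SPI. Whether nerve, ganglion or any other tissue was taken along with the bone, and what part it had in these values, was not tested. The pigment cell gene Tyrp1 fell by 0.83, and the other 5 of 6 melanocyte genes measured did not pass the test. The 2 probe sets of Tyrp1 changed by -1.11 and -0.54.

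**Figure D2:**
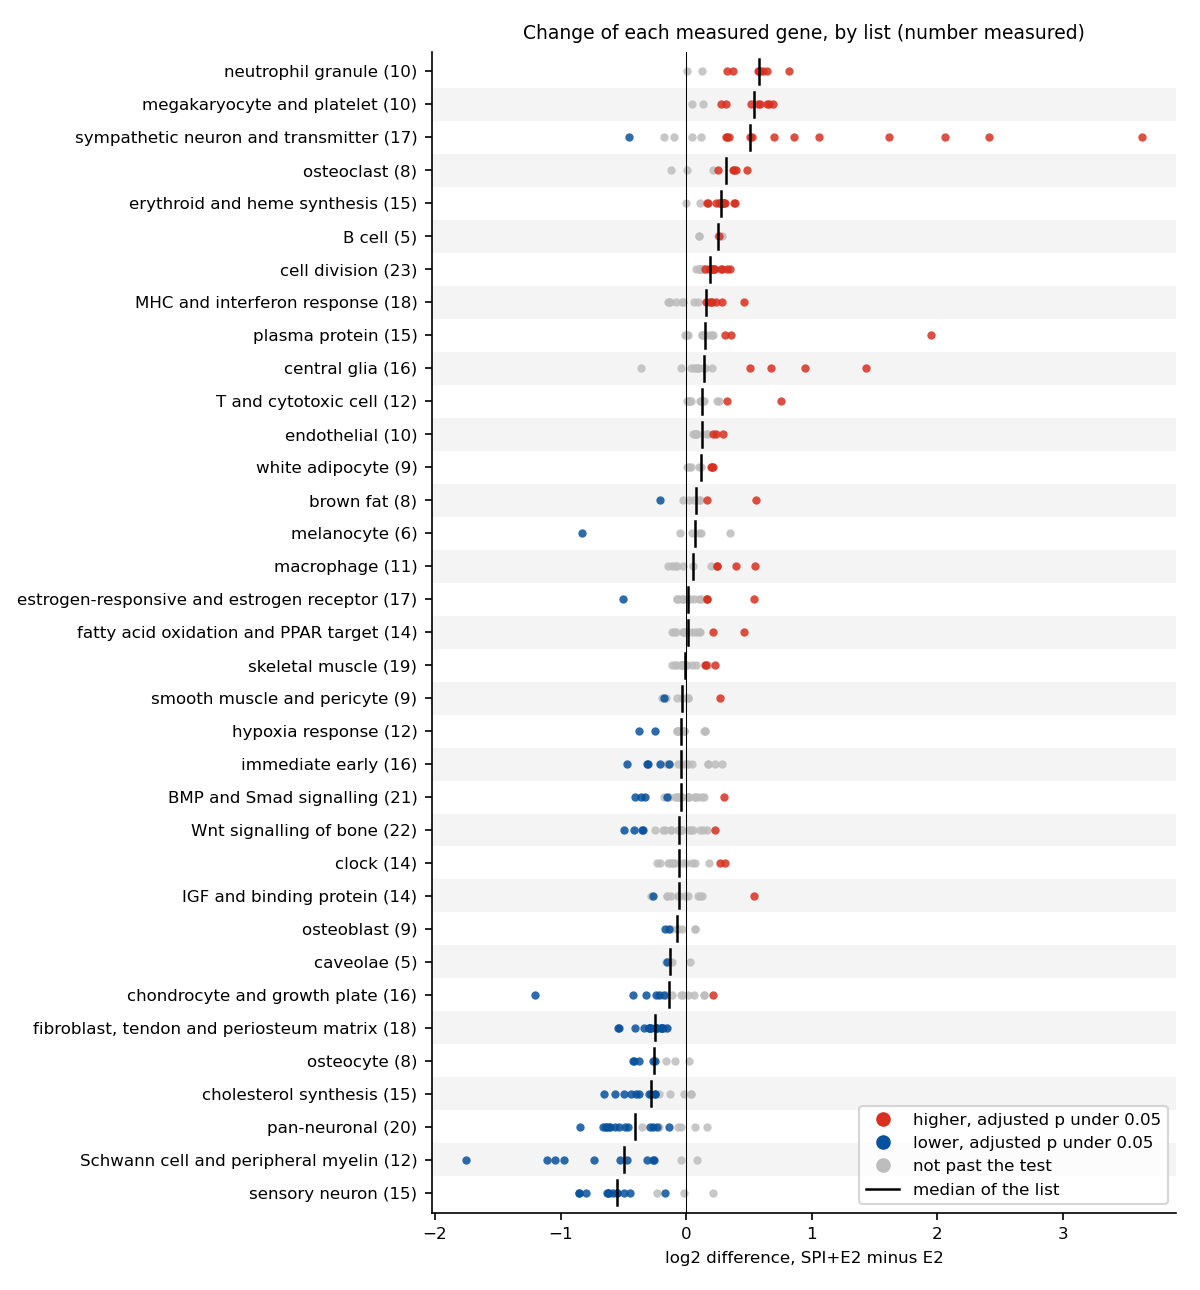
The log2 difference between SPI+E2 and E2 (x axis) of every measured gene of each list (y axis, with the number measured), coloured by the limma call, with a black bar at each list's median. Neutrophil, platelet and sympathetic genes stand highest with medians of 0.58, 0.54 and 0.51, and sensory neuron, Schwann cell and pan-neuronal genes lowest with -0.55, -0.50 and -0.41.

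Several other genes stood among the largest changes. Alb, serum albumin, measured -0.13, -0.21 and 0.00 under E2 and 1.80, 1.87 and 1.83 under SPI+E2, a 3.85-fold rise (log2 1.95, SE 0.09, limma adjusted p = 2.20e-07), with CAS and SPI means of -0.22 and 0.13. These values are means of 2 probe sets, whose log2 changes differed, at 1.19 and 2.71. Of the 15 plasma protein genes measured, Alb, Ttr and Fetub rose, the median was 0.15, and the calls for Ttr and Fetub were lost without E2 pool 3, among other arrays (adjusted p = 0.163 and 0.1002). The Ttr call was also lost after quantile normalization, median centring or a robust prior, and with the probe set of the largest SD per gene. The Fetub call was also lost in a fit of the 6 arrays. Ptgds, prostaglandin D2 synthase, which the meninges make in large amounts, had the second largest fall. It measured 0.90, 0.89 and 0.94 under E2 and -0.77, -0.81 and -0.77 under SPI+E2 (log2 -1.69, SE 0.04, adjusted p = 7.58e-10), with CAS and SPI means of 0.04 and -0.08 between them. Gjb2, a connexin, fell by 0.91 with the same order of groups, and Apod, apolipoprotein D, by 0.94. Chsy3, a chondroitin synthase, fell by 1.11, with a wide spread among the SPI+E2 arrays of -0.91 to -0.25.

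Genes of neutrophils, platelets and red cell precursors were higher in SPI+E2. Of the 10 neutrophil granule genes measured, 8 rose and none fell, with a median of 0.58. Lcn2, lipocalin 2, measured -0.11, -0.12 and -0.14 under E2 and 0.65, 0.74 and 0.70 under SPI+E2 (log2 0.82, SE 0.04, limma adjusted p = 3.86e-07). S100a8, S100a9 and the defensin genes Defa5 and Np4 rose by 0.64, 0.57, 0.59 and 0.58, while Defa7 and Pglyrp1, antimicrobial genes outside the list, rose by 1.10 and 0.92. Defensin genes are close copies of each other, so their probe sets may share signal.

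Platelet genes rose in 8 of 10 measured, with a median of 0.54. Ppbp, a platelet chemokine, measured -0.54, -0.36 and -0.32 under E2 and 0.28, 0.25 and 0.33 under SPI+E2 (log2 0.69, SE 0.06). Pf4, the related platelet factor, rose by 0.64, Tubb1, the tubulin of platelets, by 0.66 and Itga2b, a platelet integrin, by 0.52. Erythroid genes rose in 13 of 15 with a median of 0.28, among them Alas2, the erythroid enzyme of heme synthesis, by 0.39 and the regulator Klf1 by 0.29. The CAS arrays were highest for both lists, at 0.35 to 0.38 for platelet and 0.40 to 0.42 for erythroid genes, the SPI+E2 arrays read 0.08 to 0.16 and -0.08 to -0.03, and the E2 arrays were lowest at -0.37 to -0.29 and -0.32 to -0.27. Cell division genes rose in 11 of 23 with a median of 0.19 and none fell, and all 23 changes were positive. The count was 5 to 7 when an E2 pool was left out, whichever it was, or SPI+E2 pool 1 or 3. Plk1, a mitotic kinase, rose by 0.35, the replication helicase subunits Mcm3 and Mcm5 by 0.32 and 0.28, and Mki67 by 0.27. Of their promoters, 16 of 21 held CCAAT (37.5% of all promoters) and 12 of 21 held TTTGAA, the cell cycle homology region (18.3%). E2 arrays were lowest for this list too, at -0.27 to -0.20, against -0.07 to -0.03 for SPI+E2 and 0.26 to 0.31 for CAS. The part of the amount of marrow left in each bone was not tested.

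Lymphoid and interferon genes moved in smaller numbers. Nkg7, of cytotoxic granules, rose by 0.76 and the perforin gene Prf1 by 0.32, and the other 10 of 12 T and cytotoxic cell genes did not pass the test. Among B cell genes Blnk rose by 0.26, 1 of 5 measured. The MHC and interferon list had 6 rises in 18 and no fall, with a median of 0.16, and 2 or 3 rises when an E2 pool was left out, whichever it was, or SPI+E2 pool 2. Rsad2, an antiviral gene, rose by 0.46, and Psmb8, of the immunoproteasome, by 0.24.

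**Figure D3:**
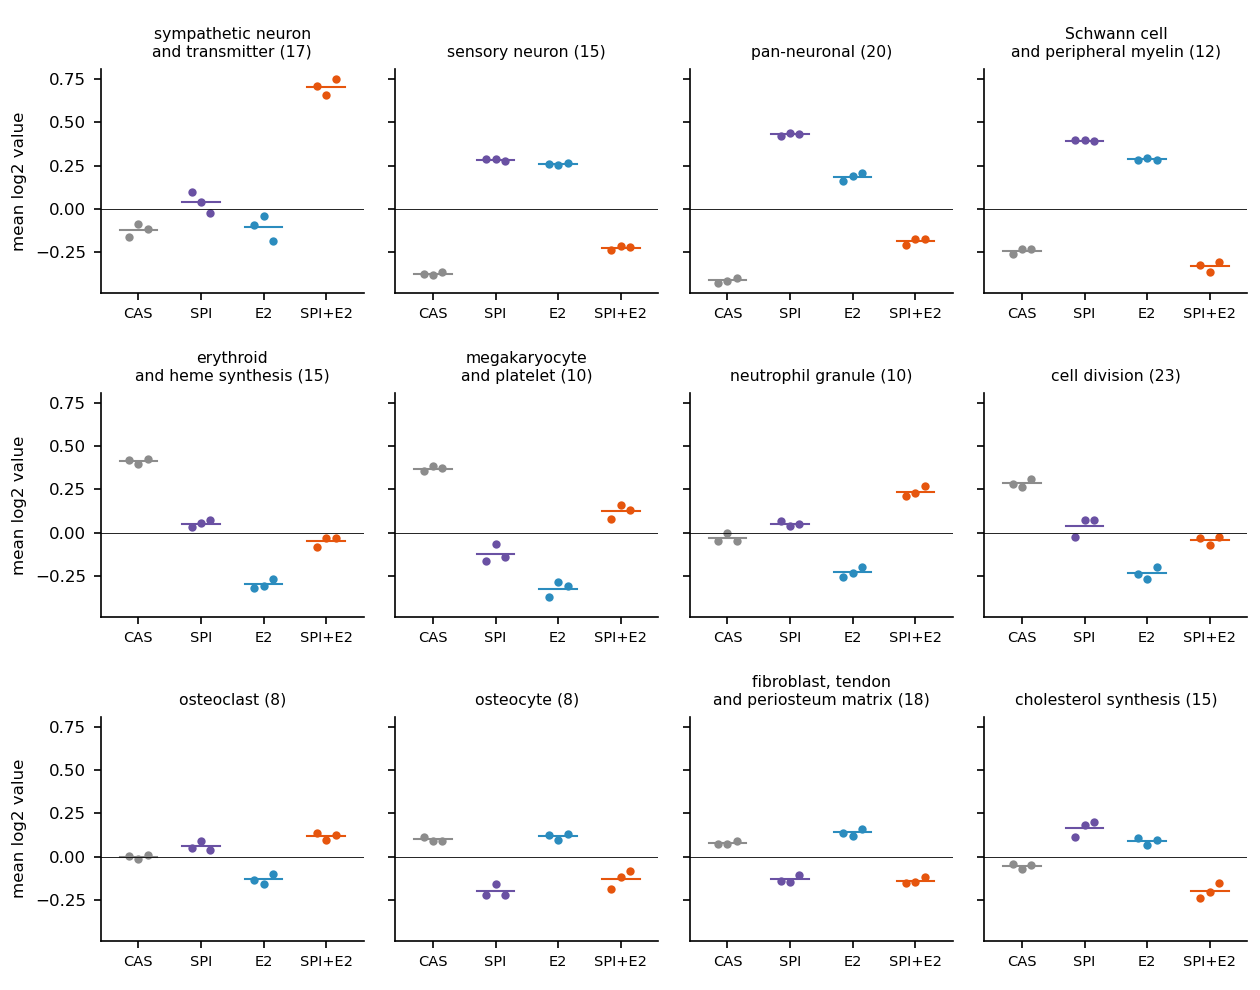
Mean log2 value over the measured genes of 12 lists (number in brackets) on each array (points) with the group mean (line), for the 4 groups on the x axis. The sympathetic list is high in SPI+E2 alone, the sensory, pan-neuronal and Schwann lists are high in SPI and E2 and low in CAS and SPI+E2, and the blood and cell division lists are lowest in E2.

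In bone itself, most osteoclast genes measured were higher in SPI+E2. Of 8 measured, 5 rose and none fell, with a median of 0.31. Acp5, tartrate-resistant acid phosphatase, measured -0.18, -0.22 and -0.19 under E2 and 0.18 on each SPI+E2 array (log2 0.38, SE 0.03, limma adjusted p = 2.62e-05). Ctsk, cathepsin K, measured -0.15, -0.17 and -0.19 and then 0.24, 0.23 and 0.23 (log2 0.40, SE 0.03). Itgb3, the integrin by which osteoclasts attach, rose by 0.48, Mmp9 by 0.37 and Car2, carbonic anhydrase that supplies acid, by 0.26. Neutrophils also make Mmp9, platelets carry Itgb3 and red cells carry Car2. Calcr, Nfatc1 and Tnfrsf11a, with changes of 0.01, -0.12 and 0.21, did not pass the test. Gpnmb, a glycoprotein of osteoclasts and macrophages, rose by 0.77 (SE 0.04), and the macrophage genes Cd68, Lyz2 and Csf1r by 0.55, 0.39 and 0.24. These were among 4 of 11 macrophage genes that rose, and the median of that list was 0.06.

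Osteocyte genes fell in 5 of 8 with a median of -0.26. Dmp1, a matrix protein of early osteocytes, measured 0.16, 0.16 and 0.17 under E2 and -0.13, -0.10 and -0.03 under SPI+E2 (log2 -0.25, SE 0.04, limma adjusted p = 0.00166). Mepe, another matrix protein of osteocytes, fell by 0.27 and Pdpn, of their processes, by 0.37. The calls for the other members, Phex and Ptprz1, were lost without E2 pool 1, among other arrays (adjusted p = 0.0820 and 0.0598), which left 3 of 8. Sost, sclerostin, changed by 0.02 (SE 0.10, adjusted p = 0.916), with the SPI+E2 arrays at -0.10, 0.25 and -0.02 on both sides of the E2 arrays. Its sign turned without E2 pool 3 or SPI+E2 pool 2 (-0.0053 and -0.081). Of 9 osteoblast genes measured, 2 fell, Ibsp and Sparc, by 0.17 and 0.13, and both calls were lost without E2 pool 1, among other arrays (adjusted p = 0.0888 and 0.0676). Bmp2, an osteogenic ligand, changed by 0.07 (adjusted p = 0.523).

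Connective tissue matrix genes fell almost throughout. In the list of fibroblast, tendon and periosteum matrix, 17 of 18 fell and the other changed in the same direction, with a median of -0.25. Aspn, asporin, measured 0.26, 0.29 and 0.39 under E2 and -0.33, -0.29 and -0.07 under SPI+E2 (log2 -0.54, SE 0.08), and Tnmd, tenomodulin of tendon, fell by 0.53. Ogn and Dcn, small proteoglycans, fell by 0.41 and 0.34, Postn, of the periosteum, by 0.28, and Col3a1 by 0.24. Cnmd, chondromodulin of cartilage, fell far more, from 0.39, 0.45 and 0.55 to -0.68, -0.87 and -0.68 (log2 -1.20, SE 0.06, limma adjusted p = 3.40e-07). Of 16 cartilage genes 6 fell and 1 rose, with a median of -0.14. Col11a1, Col9a3, Comp and Acan fell by 0.42, 0.32, 0.24 and 0.22, and Pth1r, the receptor of parathyroid hormone, rose by 0.21, a call lost without any E2 pool, SPI+E2 pool 2 or CAS pool 3.

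**Figure D4:**
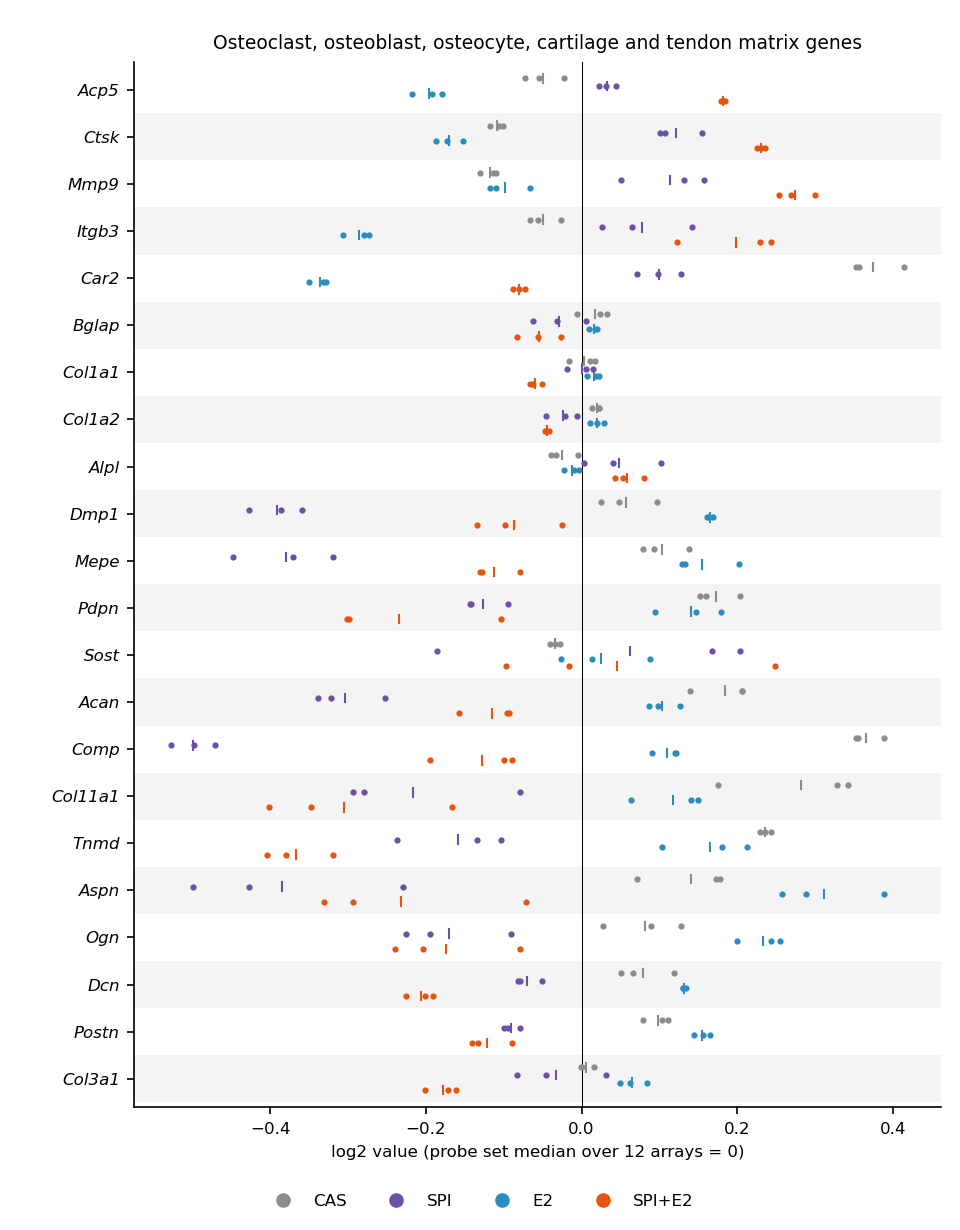
Log2 values (x axis) on all 12 arrays for osteoclast genes (Acp5 to Car2), osteoblast genes (Bglap to Alpl), osteocyte genes (Dmp1 to Sost), cartilage genes (Acan to Col11a1) and tendon and periosteum matrix genes (Tnmd to Col3a1); points are arrays and short bars group means. The osteoclast genes lie to the right for SPI+E2 and to the left for E2, the osteocyte, cartilage and tendon genes lie the other way except Sost, and the osteoblast genes lie near 0 in all groups.

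Signalling lists showed few and mixed calls. In the BMP list 4 of 21 fell and 1 rose, Bmp3, Bmp4 and the antagonist Nog falling by 0.41, 0.36 and 0.33 and the antagonist Grem1 rising by 0.30. In the Wnt list 4 of 22 fell and 1 rose. The secreted antagonists Sfrp2 and Sfrp1 fell by 0.50 and 0.35, the co-receptor Lrp6 by 0.42 and the receptor Fzd1 by 0.35, and Lrp4, which binds sclerostin, rose by 0.23. Of 16 immediate early genes 5 fell and none rose, among them Atf3, a stress-induced transcription factor, which measured 0.39, 0.52 and 0.52 under E2 and 0.12, 0.16 and 0.21 under SPI+E2 (log2 -0.31, SE 0.07, limma adjusted p = 0.00812). Dusp1, a phosphatase of MAP kinases, fell by 0.30. The count of falls was 3 when an E2 pool was left out, whichever it was, or SPI+E2 pool 1 or 2. Of 12 hypoxia response genes 2 fell, Ndrg1 by 0.38 and P4ha1 by 0.25, and of 14 clock genes 2 rose, Dbp by 0.31 and Per2 by 0.27.

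Genes that respond to estrogen in other tissues mostly did not pass the test, with 3 of 17 higher, 1 lower and a median of 0.02. Igfbp2, an IGF binding protein, measured 0.48, 0.50 and 0.62 under E2 and 1.12, 1.01 and 1.10 under SPI+E2 (log2 0.54, SE 0.05, limma adjusted p = 5.56e-05). The CAS mean was -1.37 and the SPI mean -0.55, so the E2 arrays lay above both and the SPI+E2 arrays higher still. Ramp3, a co-receptor of the calcitonin receptor family, fell by 0.51. The other rises, Cxcl12 and Agtr1a, lost their calls without E2 pool 1, among other arrays (adjusted p = 0.0745 and 0.0672). Both calls were also lost with the probe set of the largest SD per gene, and that of Agtr1a after quantile normalization. Across the alternatives the Cxcl12 change went as low as 0.016. In the IGF list Igfbp2 rose, Igfbp6 fell by 0.26 and the other 12 of 14 did not pass the test.

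Cholesterol synthesis genes fell together. Of 15 measured, 10 fell and none rose, with a median of -0.28. Idi1, of the isoprenoid step, measured 0.19, 0.14 and 0.23 under E2 and -0.45, -0.53 and -0.43 under SPI+E2 (log2 -0.66, SE 0.06, limma adjusted p = 5.17e-05). Msmo1, Sqle and Sc5d, enzymes of the sterol steps, fell by 0.57, 0.50 and 0.44. CCAAT lay in 10 of the 12 promoters found for this list. Schwann cells make cholesterol for myelin, and the means of this list over the arrays, -0.24 to -0.15 for SPI+E2, 0.07 to 0.11 for E2, 0.11 to 0.20 for SPI and -0.07 to -0.04 for CAS, had their group means in the same order as those of the Schwann list. The part of nerve in the cholesterol genes was not tested.

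Vessel, fat and muscle genes showed small changes. Endothelial genes rose in 3 of 10 (Cldn5 by 0.29, Pecam1 by 0.24 and Egfl7 by 0.21). The caveolae list had 1 fall in 5, and Cav1, caveolin, measured 0.01, 0.08 and 0.11 under E2 and -0.11, -0.01 and -0.16 under SPI+E2, which did not pass the test (log2 -0.16, SE 0.05, limma adjusted p = 0.0653) but did after quantile normalization (-0.19, adjusted p = 0.0333). White adipocyte genes rose in 3 of 9 with a median of 0.12, and in 1 of 9 without E2 pool 1, E2 pool 2 or SPI+E2 pool 2. Ucp1, the uncoupling protein of brown fat, rose by 0.55 (SE 0.05), and in all 2 of 8 brown fat genes rose and 1 fell. In the list of fatty acid oxidation 2 of 14 rose, and Angptl4, an inhibitor of lipoprotein lipase, rose by 0.46. Skeletal muscle genes rose in 3 of 19 with a median of -0.01, Ryr1 by 0.23 the largest, and in 1 of 19 without E2 pool 1. Smooth muscle genes rose in 1 of 9, with 1 fall. Without E2 pool 1, the single falls of the caveolae, smooth muscle and brown fat lists and 1 of the 2 brown fat rises were lost, and in the fatty acid list 1 of the 2 rises. Leaving out other E2 or SPI+E2 pools also ended these calls, among them E2 pool 3 or SPI+E2 pool 1 for the falls and E2 pool 3 or SPI+E2 pool 2 for the rises.

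SPI had also been fed without estradiol, and that comparison, SPI against CAS, shares no array with SPI+E2 against E2. Without estradiol, SPI in place of casein raised 10.7% of genes and lowered 14.6%. A total of 1132 genes were called in both comparisons, 51.2% of the calls under estradiol and 31.4% of those without it. SPI raised 207 of them and lowered 357 of them in either setting. A further 138 rose under estradiol but fell without it, and 430 fell under estradiol but rose without it. Across all genes the changes had a correlation of -0.07, and genes are not independent replicates. The difference between the SPI changes was tested as the interaction, which called 8.03% of genes as higher under estradiol and 7.72% as lower.

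The sensory, pan-neuronal and Schwann cell lists were among those that changed in opposite directions with and without estradiol. Sensory neuron genes rose in 14 of 15 without estradiol with a median of 0.79 and fell in 12 of 15 under estradiol with -0.55. By the interaction test, 14 of 15 had a lower change under estradiol. Snap25 rose by 1.31 without estradiol and fell by 0.49 under it (interaction -1.80, limma adjusted p = 1.20e-08). Calca rose by 0.65 and fell by 0.55 (interaction -1.20). Pan-neuronal genes rose in 19 of 20 without estradiol, with 19 of 20 lower by the interaction, and Schwann cell genes in 10 of 12, with 10 of 12 lower. Gpm6a, a neuronal membrane glycoprotein, had the lowest interaction of the named genes apart from Eif2s3y. It rose by 1.42 without estradiol and fell by 1.06 under it.

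Platelet genes had the reverse pattern, with 7 of 10 lower without estradiol, 8 of 10 higher under estradiol and 8 of 10 higher by the interaction. Ppbp fell by 1.29 without estradiol and rose by 0.69 under it (interaction 1.98, limma adjusted p = 4.2e-08). Erythroid genes fell in 13 of 15 without estradiol and rose in 13 of 15 under it, and 14 of 15 had a higher interaction. Of 17 sympathetic genes, 6 rose and 2 fell without estradiol with a median of 0.16, against 12 and 1 under estradiol. The interaction called 10 as higher and 2 as lower. Vip, Th and Slc18a2 changed by 0.36, 0.05 and 0.07 without estradiol and did not pass the test there. Npy and Cyb561 rose by 0.25 and 0.34 without estradiol, and Dbh rose by 0.40 without it against 1.61 under it (interaction 1.21, adjusted p = 0.000135).

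Osteocyte and tendon genes fell in both comparisons. The fibroblast, tendon and periosteum list fell in 13 of 18 without estradiol (median -0.19) and in 17 of 18 under estradiol (-0.25). The interaction called 3 of 18 as lower. Osteocyte genes fell in 5 of 8 in each comparison, with Dmp1 at -0.45 without estradiol and -0.25 under it. The interaction called 2 of 8 as higher and 0 as lower. Mepe, called as higher, changed by -0.48 without estradiol and by -0.27 under it. Of 8 osteoclast genes, 2 rose and 2 fell without estradiol with a median of 0.10, against 5 rises under estradiol, and 4 of 8 had a higher interaction. Ctsk and Mmp9 rose by 0.23 each without estradiol, and Car2 and Nfatc1 fell by 0.28 and 0.17. Acp5 and Itgb3, at 0.08 and 0.13, did not pass the test there. Cartilage genes fell in 10 of 16 without estradiol and in 6 of 16 under it, and 8 of 16 had a higher interaction. Col10a1, collagen of hypertrophic cartilage, fell by 1.99 without estradiol, where its CAS mean was 1.16. Under estradiol it changed by -0.17, a call lost without any of the E2 arrays, SPI+E2 pool 1 or 2, the CAS arrays or SPI pool 3 (adjusted p up to 0.153). The call was also lost in a fit of the 6 arrays, after quantile normalization and with the probe set of the largest SD per gene. Over all alternatives the limma adjusted p went up to 0.222. All SPI changes without estradiol rest on the CAS arrays that stood apart in Eif2s3y.

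**Figure D5:**
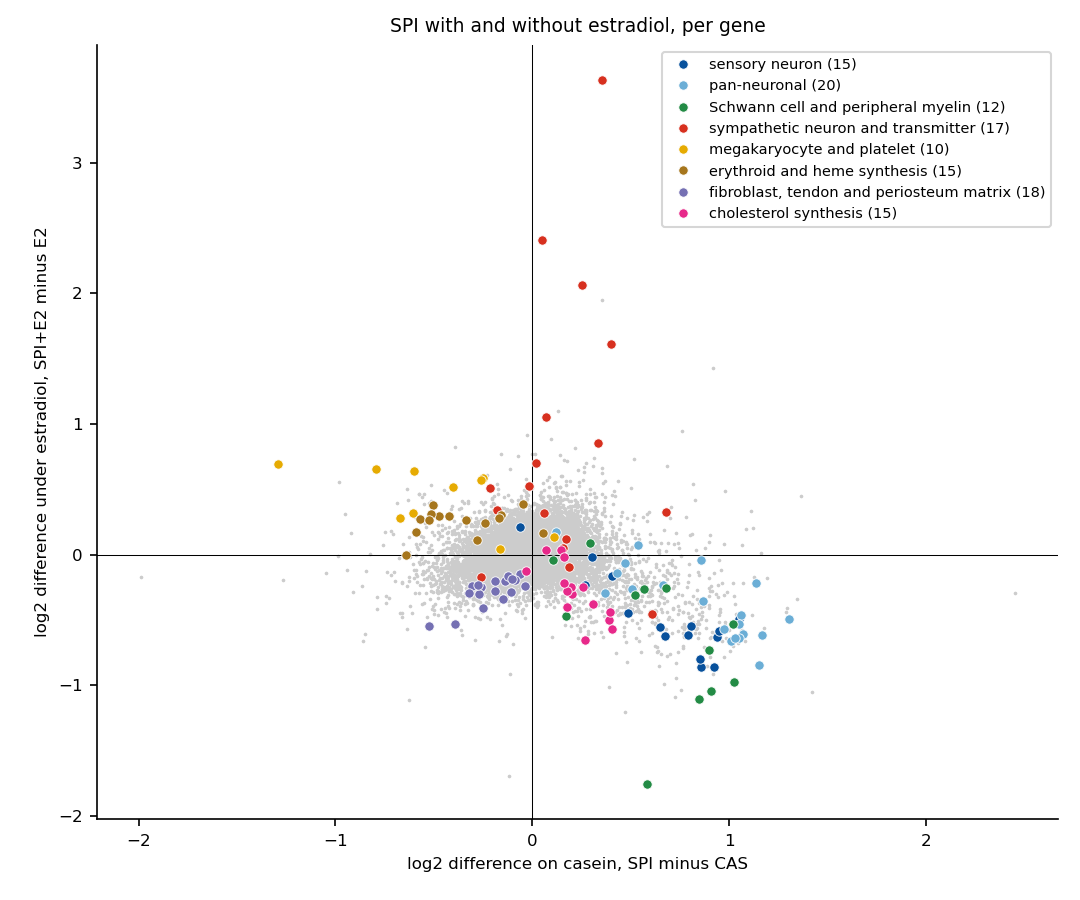
Log2 difference of SPI against CAS without estradiol (x axis, where the axis label reads on casein) and of SPI+E2 against E2 under estradiol (y axis) for 14217 genes (grey) and the members of 8 lists (coloured). Sensory, pan-neuronal and Schwann genes lie at the lower right, platelet and erythroid genes at the upper left, and tendon and periosteum genes at the lower left. Vip, Th and Npy lie highest of all, at 3.63, 2.41 and 2.06 under estradiol against 0.36, 0.05 and 0.25 without it.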

How the data were processed

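Total RNA of tibia was hybridised to 12 Affymetrix rat arrays, 3 pools in each of 4 groups, and each array was put in its group by its label. GCOS and RMA are named in the submitters' processing notes, and per the methods the log2 values were then normalized per chip and per gene by the authors before they were deposited. Every probe set has a median of 0 over the 12 arrays, so they carry no signal over background, and precision is limited by the number of arrays. The log base is that of the methods. All sample columns were used (0 unused).

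Of 31099 probe sets, 57 controls were left out. The platform annotation gave a single symbol to 20826 probe sets, several to 436 and none to 9780. The gene number of 20758 probe sets was found in the current gene table, with 0 symbols changed. Gene values are means over the probe sets with 1 symbol (14217 genes, 4525 with more than 1 probe set). Runx2 had no such probe set and is not reported here. The 4 group means were fitted in limma 3.58.1 (R 4.3.3, statmod 1.5.0), with Benjamini-Hochberg adjustment over all probe sets or all genes, and a call is an adjusted p under 0.05. The fit was also run on simulated data, and no result here rests on that run.

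Genes were named by a rule: the 15 largest rises and 15 largest falls among called genes with no overlap between the arrays, up to 4 called members of each of 36 lists, genes the paper names and the 10 largest interactions each way, and other list members are named beside them. The comparison and the lists were chosen with earlier results of these data known. Lists are described by counts and medians without a test. Promoters were matched by symbol. The alternatives tried were a fit of the 6 arrays, a replicate block, quantile normalization, median centring, a robust prior, array weights, other thresholds, natural logarithms, medians, other choices of probe set and leaving out each array.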

Additional observations from a re-analysis of the deposited data

Results flagged for a closer look

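The SPI changes with and without estradiol were compared by the interaction term (limma, adjusted p under 0.05 over all genes). They differed in 96 of the 136 genes named and in 2240 of all 14217 genes. The named genes were chosen partly by this interaction or by the change under estradiol that enters it. Their larger share was favoured by that choice. Each value below is the change under estradiol minus the change without it on the log2 scale, and each rests on the CAS arrays. No explanation was weighed for any of them.

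Among sympathetic genes the difference was 3.28 for Vip, 2.36 for Th, 1.81 for Npy, 1.21 for Dbh, 0.99 for Slc18a2 and 0.52 for Cyb561. Sensory neuron genes gave -1.78 for Calcb, -1.72 for Scn9a, -1.65 for Tac1, -1.57 for Scn11a and -1.20 for Calca. For genes of most neurons it came to -2.00 for Scg2, -1.80 for Snap25, -1.69 for Nefm, -1.67 for Elavl4 and -1.67 for Nefh. Schwann cell genes showed -2.34 for Pmp2, -2.00 for Mal, -1.96 for Pmp22, -1.95 for Prx and -0.64 for Egr2. Other genes among the largest falls had -2.48 for Gpm6a, -1.83 for Synpr, -1.82 for Rgs7bp, -1.79 for Shc4, -1.67 for Apod, -1.67 for Cnmd, -1.66 for Dusp15, -1.57 for Ptgds, -1.40 for Cntf and -0.80 for Gjb2. Other genes among the largest rises had 1.59 for Alb, 1.21 for C3h15orf48, 0.96 for Defa7, 0.94 for Pglyrp1, 0.79 for Sh2d5, 0.77 for Gpnmb and 0.51 for Mobp. Platelet and erythroid genes stood at 1.98 for Ppbp, 1.45 for Tubb1, 1.25 for Pf4, 0.84 for Gp9, 0.89 for Hemgn, 0.82 for Ahsp, 0.46 for Fech and 0.44 for Alas2. In neutrophil, macrophage and cytotoxic cell genes the values were 0.84 for Fcnb, 0.60 for Lcn2, 0.50 for Defa5, 0.41 for S100a8, 0.44 for Cd68, 0.39 for Lyz2, 0.19 for Csf1r, 0.83 for Nkg7 and 0.35 for Prf1. Cell division and interferon genes gave 0.54 for Mcm3, 0.47 for Mki67, 0.43 for Plk1, 0.34 for Mcm5 and 0.28 for Rsad2. Among osteoclast, osteocyte, cartilage and matrix genes they were 0.36 for Itgb3, 0.30 for Acp5, 0.17 for Ctsk, 0.22 for Mepe, 1.82 for Col10a1, 0.63 for Comp, 0.46 for Col9a3 and -0.19 for Dcn. Fat, vessel, caveolae and muscle genes had 1.53 for Ucp1, 1.08 for Cidea, 0.60 for Cidec, 0.35 for Cfd, 0.31 for Pecam1, 0.27 for Egfl7, 0.34 for Cav1, -0.22 for Cavin3, 0.52 for Myl3, 0.47 for Tnnt1 and 0.44 for Ryr1. For signalling and hormone-related genes the difference was 0.46 for Bmp2, -0.28 for Sfrp1, -0.23 for Sfrp2, -0.38 for Atf3, -0.77 for Ramp3, -0.27 for Igfbp2, -0.24 for Igfbp6, 0.20 for Cxcl12, -0.76 for Ndrg1 and -0.27 for Dbp. Cholesterol synthesis genes stood at -0.98 for Msmo1, -0.92 for Idi1, -0.89 for Sqle and -0.84 for Sc5d. The remaining genes gave -1.56 for Tyrp1, 1.26 for Serpinb2 and -2.75 for Eif2s3y.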

How the results depend on the processing

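The 1.5-fold count of 266 probe sets became 942 when the values were read as natural logarithms. At an adjusted p under 0.01 the calls were 1351 probe sets (572 higher, 779 lower), 1071 genes (466 higher, 605 lower), 1710 probe sets for the interaction and 3 osteocyte genes. At an unadjusted p under 0.05 they were 7912 probe sets (4266 higher, 3646 lower), 4217 genes (2191 higher, 2026 lower) and 6744 for the interaction. With 1 array left out, the calls ranged from 1852 to 3791 probe sets (883 to 1807 higher, 969 to 1984 lower), from 1450 to 2606 genes (684 to 1244 higher, 753 to 1362 lower) and from 3 to 6 osteocyte genes. The change of Sost, which never passed the test, was -0.010 after quantile normalization, and lay between -0.081 and 0.091 with 1 array left out. Of the 136 named gene changes, 107 kept their direction and their side of the threshold under all 21 alternatives and 26 lost the call under at least 1, of which 22 did so when 1 array was left out. Pools of the same number had deviations that correlated at 0.0117, 0.0918 and 0.129 between E2 and SPI+E2, and the labels tie no pools together. With the number as a replicate block, 3147 probe sets and 2223 genes were called, and Tap1 and Agtr1a lost their calls. The cause of these shifts was not tested. Centred values hold no signal over background, so probe sets near background could not be told from the rest.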
